A study of Mus musculus with 6 samples.

Results

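The guanylin and Cftr secretion axis was followed through 6 genes, the peptide genes Guca2a and Guca2b, the receptor gene Gucy2c, the kinase gene Prkg2 and the anion channel genes Cftr and Best2. They were taken by gene symbol, 6 of the 54532 genes in the count table, and all 6 were among the 16861 genes with enough reads to be tested. The libraries were made from polyadenylated RNA of the distal colon, 3 from wild-type mice (WT 1 to WT 3) and 3 from mice labelled Itgbl1 -/- (KO 1 to KO 3). Under both labels the mice drank 3% dextran sulfate sodium (DSS), which damages the gut lining, for 7 days, and no library came from a mouse without DSS. The sources used here do not give the making of the knockout allele, the age or the strain. Nothing beyond a replicate number says that each library is a separate animal, and the p-values therefore cover only the variation among these samples, which may be technical.

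Guanylin and uroguanylin, the products of Guca2a and Guca2b, are small peptides that intestinal epithelial cells release into the lumen. They bind guanylate cyclase C, the product of Gucy2c, in the apical membrane, and the cyclase makes cGMP. cGMP activates the type II cGMP-dependent kinase encoded by Prkg2, which phosphorylates the chloride and bicarbonate channel CFTR, while the sodium-hydrogen exchanger NHE3 is inhibited, so that salt and water stay in the lumen. Bestrophin-2, the product of Best2, is a calcium-activated anion channel that in mouse colon serves bicarbonate secretion in goblet cells.

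Guca2a and Guca2b lie on chromosome 4 (GRCm38) with 17135 bases and 0 other annotated genes between them. Guca2a (ENSMUSG00000023247) spans 119637704 to 119639471 on the plus strand and Guca2b (ENSMUSG00000032978) spans 119656607 to 119658954 on the minus strand. The active peptide is cut from the carboxy-terminal end of each precursor. The coding ends are shown to let the reader see how far the related genes differ. They hold the last 15 codons before the stop codon in the GENCODE M21 transcripts, all in exon 3 of 3, at chr4:119639228-119639272 for Guca2a and chr4:119656795-119656839 for Guca2b, with cysteine codons in capitals.
Guca2a: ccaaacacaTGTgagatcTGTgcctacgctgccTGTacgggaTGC
Guca2b: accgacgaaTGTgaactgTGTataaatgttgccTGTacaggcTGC
Of the 45 bases compared, 29 (64.4%) were identical, and all 4 cysteine codons stood at the same positions, while 5 of 15 codons were the same. The precursors have 116 and 106 codons.

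The bases upstream of the start site are shown for the 3 members found in the RefSeq promoter table (GRCm38.p6), since these genes were low in the same libraries. Each run is the 250 bases before the RefSeq start, at chr4:119637482-119637731 (plus strand) for Guca2a, chr4:119658946-119659195 (minus strand) for Guca2b and chr6:18170437-18170686 (plus strand) for Cftr. Capitals mark matches, on either strand, to letters chosen after the sequences were seen. These were AGATAA for factors of the GATA family, TGTTTAC for forkhead factors, GTTAAT for part of the HNF1 site and TTTATG for CDX factors. Also searched were GGGCGG for SP and KLF factors, the box CCAAT and the box TATAAA, and matches of 1 motif may overlap.
Guca2a: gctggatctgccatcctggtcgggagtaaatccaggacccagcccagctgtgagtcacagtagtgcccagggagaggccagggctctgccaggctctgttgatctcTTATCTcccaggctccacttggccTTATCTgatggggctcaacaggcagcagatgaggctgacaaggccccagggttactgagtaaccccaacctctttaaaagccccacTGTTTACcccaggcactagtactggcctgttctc
Guca2b: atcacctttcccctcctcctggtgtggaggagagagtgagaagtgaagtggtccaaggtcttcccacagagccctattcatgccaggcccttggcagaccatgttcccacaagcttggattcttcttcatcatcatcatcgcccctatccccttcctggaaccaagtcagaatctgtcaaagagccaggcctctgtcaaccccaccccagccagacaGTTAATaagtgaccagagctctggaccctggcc
Cftr: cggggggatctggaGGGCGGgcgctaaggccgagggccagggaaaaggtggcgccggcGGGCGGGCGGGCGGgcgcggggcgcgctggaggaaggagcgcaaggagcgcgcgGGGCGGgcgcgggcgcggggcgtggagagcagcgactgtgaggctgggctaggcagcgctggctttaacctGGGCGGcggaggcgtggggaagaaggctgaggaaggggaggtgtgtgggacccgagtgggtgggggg
The Guca2a window held AGATAA at 120 and 144 bases before the start, both on the opposite strand, and TGTTTAC at 34 bases. The Guca2b window held GTTAAT at 33 bases. The Cftr window held GGGCGG 6 times, 3 of which overlapped each other. Among 32851 promoter windows of the same length, 9.99% held AGATAA, 3.17% TGTTTAC, 6.43% GTTAAT and 32.7% GGGCGG, while the CDX letters, the box CCAAT and the box TATAAA, with no match in these 3 windows, were in 10.8%, 33.8% and 12.4%. GC content was 57.2% for Guca2a, 54.4% for Guca2b and 76.4% for Cftr, against a median of 52.4%, and CG dinucleotides numbered 1, 1 and 30. These letter matches are descriptions of the windows.

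Facts of the libraries bear on every value that follows. Gene counts totalled 13326970 to 18321389 per library. Itgbl1 had 19, 6 and 5 reads in the wild-type libraries and 12, 4 and 10 in those labelled knockout. Its count thus shows no loss, and each direction that follows is one between labels. KO 3 stood apart, with 12.8% mitochondrial counts against 3.53 to 4.88% in the other libraries. The summed level of 11 pan-epithelial markers, Epcam and Cdh1 among them, was 17385 to 27008 CPM (counts-per-million of the TMM-scaled library size) in the wild-type libraries and 1287, 8038 and 128 CPM in KO 1, KO 2 and KO 3, with 0 of the 11 at a count of 0 in any library. Fewer epithelial cells and less RNA per cell cannot be told apart in bulk tissue. The 5 distal colon Hox genes summed to 258 to 700 CPM under the wild-type label and 37.8 to 121 CPM under the knockout label, and the 3 tested of 5 enterocyte markers of the small intestine to at most 31.3 CPM. Of the Hox sums, Hoxb13 alone held 178 to 538 CPM under the wild-type label and 0.699 to 59.5 CPM under the knockout label. While 3 of the 5 Hox genes were without overlap and lower, Hoxd10 and Hoxd12 overlapped between the labels.

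Of the 6 genes, 5 had all their values under the knockout label below the lowest wild-type value, and Prkg2 had all of them above the highest. A log2 ratio below 0 was found for 46.9% of genes tested. Among all genes tested, 17.3% were without overlap and lower, and 15.0% without overlap and higher. With edgeR's quasi-likelihood test and Benjamini-Hochberg adjustment over the 16861 genes, 0 of the 6 passed the threshold of 0.05, as 0 genes did in the whole table (0%). All 6 had an unadjusted p under 0.05, as had 24.1% of genes tested. Guca2b reached the count asked by the filter in the wild-type libraries and KO 2 alone. Gucy2c, Cftr and Best2 reached it in all libraries but KO 3, and Guca2a in all. Being tested thus rested in part, for Guca2b above all, on the label where the level is higher. DESeq2 called the 5 lower genes (adjusted p of 6.83e-10 to 0.00978), against 6.45% of all genes called lower and 4.02% called higher, 10.5% in all, and limma-voom called 0. With quality weights limma-voom called Guca2a and Gucy2c (6.05% of all genes called lower), and without KO 2 edgeR called Guca2a and Best2 (10.4% of genes called, 7.75% lower). Without KO 3, the library that stood apart, the log2 ratios were -3.11 for Guca2a, -2.87 for Guca2b, -3.001 for Gucy2c, -4.73 for Cftr and -5.58 for Best2, and edgeR called 0 of the 6.

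**Figure D1:**
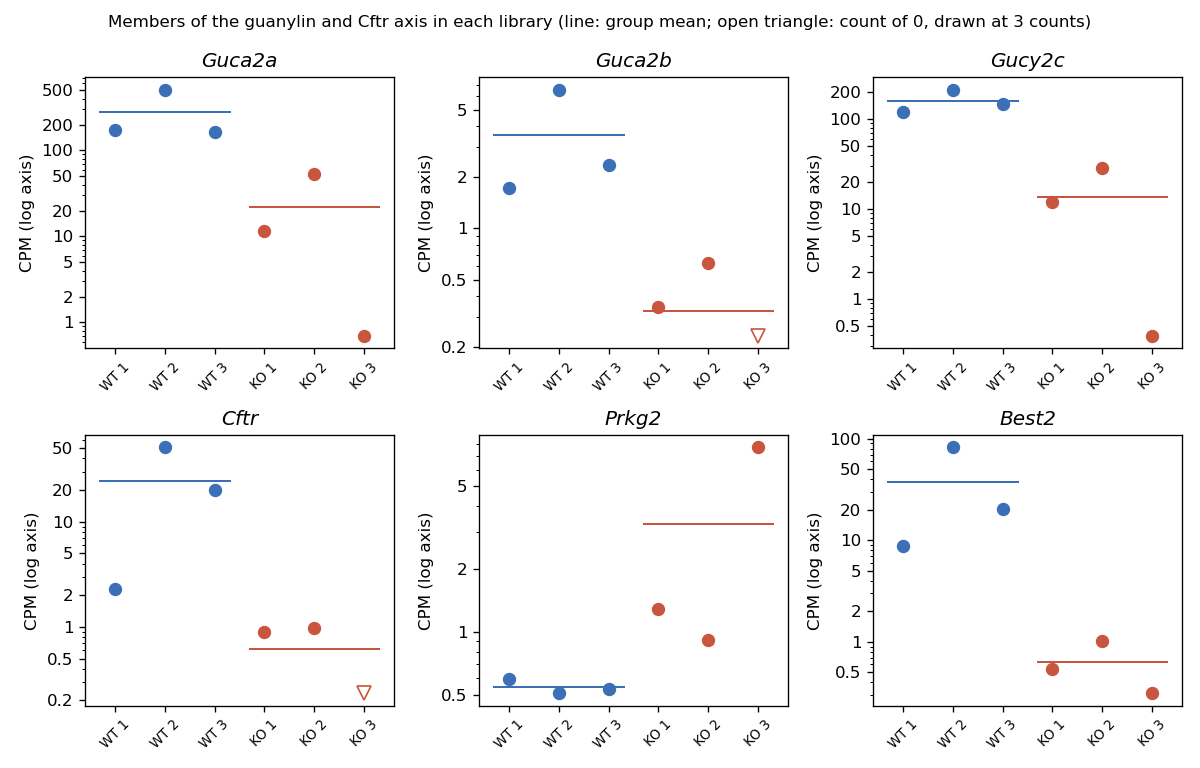
Level of each axis gene in every library, in CPM on a log axis, with points for libraries, lines for group means and open triangles for counts of 0 drawn at 3 counts. The 3 libraries labelled KO lie below the 3 WT libraries for Guca2a, Guca2b, Gucy2c, Cftr and Best2 and above them for Prkg2.

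Guca2a, which encodes guanylin, had the highest mean level per length of the 6 genes under either label. The wild-type libraries held 173, 510 and 164 CPM, the libraries labelled knockout 11.5, 53.8 and 0.699 CPM (in the order 1, 2, 3, here and in what follows). WT 2 was about 3.12 times the lowest wild-type library, and KO 3 held only 9 reads, while KO 2 kept 19.0% of the wild-type mean. Means were 282.3 ± 197.4 CPM under the wild-type label and 22.0 ± 28.0 CPM under the knockout label (SD, n = 3 each). The log2 ratio was -3.68 ± 1.33 (SE), a level 12.8-fold lower with a 95% interval of 1.45 to 113 (edgeR adjusted p = 0.164). Without KO 2 it was -5.57 (edgeR adjusted p = 0.0479), and without WT 2 it was -2.94 (edgeR adjusted p = 0.42).

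Guca2b, which encodes uroguanylin, followed guanylin at a far lower level. Its reads numbered 29, 104 and 40 under the wild-type label and 7, 11 and 0 under the knockout label. WT 2 was again the highest library. In CPM these were 1.72, 6.58 and 2.36 against 0.346, 0.629 and 0, and the 0 in KO 3 allows up to 0.233 CPM (3 counts, counting error only). The log2 ratio was -3.37 ± 1.02 (SE, edgeR adjusted p = 0.129), with -2.60 when WT 2 and -4.20 when KO 2 was left out. Per length, Guca2a exceeded Guca2b by 147, 114 and 102 times in WT 1 to WT 3, by 48.8 times in KO 1 and by 125 times in KO 2, and KO 3 gave no ratio. The ratio in KO 1 rests on 7 Guca2b reads, whose exact Poisson 95% interval is 2.81 to 14.4.

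Gucy2c (ENSMUSG00000042638, chromosome 6, 136697284 to 136781765, minus strand), the receptor gene for both peptides, was the steadiest of the 5 lower genes within the wild-type label. Its wild-type levels of 121, 212 and 146 CPM spread 1.76-fold, and those labelled knockout were 11.9, 28.2 and 0.389 CPM. The order KO 2, KO 1, KO 3 was that of guanylin and of the summed pan-epithelial markers. Means were 159.8 ± 47.4 and 13.5 ± 14.0 CPM (SD, n = 3 each), and the log2 ratio was -3.56 ± 1.16 (SE, edgeR adjusted p = 0.14), an 11.8-fold lower level with a 95% interval of 1.77 to 78.8. Leaving out KO 2 gave -4.75 (edgeR adjusted p = 0.0601), a 26.8-fold lower level. Ligand and receptor transcripts were low together: per length Guca2a was 7.45 to 16.01 times Gucy2c under the wild-type label and 6.47 to 12.7 times under the knockout label, ranges that overlap. The ratio in KO 3 rests on 9 Guca2a and 5 Gucy2c reads, with exact Poisson 95% intervals of 4.12 to 17.1 and 1.62 to 11.7.

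Cftr (ENSMUSG00000041301, chromosome 6, 18170687 to 18322768, plus strand), the channel on which the cGMP signal acts, had 39, 810 and 341 reads in the wild-type libraries and 18, 17 and 0 in the others. In CPM the wild-type libraries were at 2.32, 51.3 and 20.1 and the libraries labelled knockout at 0.889, 0.972 and 0, the last allowing up to 0.233 CPM. WT 1 thus lay close above KO 2, and WT 2 was 22.1 times WT 1. The log2 ratio was -5.23 ± 1.37 (SE, edgeR adjusted p = 0.108), and 0.285% of genes tested had a lower one. Leaving out WT 2 gave -4.15 (edgeR adjusted p = 0.329). An antisense gene and a pseudogene annotated within Cftr had 0 reads in all libraries.

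Best2 (ENSMUSG00000052819, chromosome 8, 85007202 to 85014531, minus strand), the goblet cell bestrophin gene, had the lowest ratio of the 6. Wild-type levels were 8.74, 82.9 and 20.6 CPM, against 0.544, 1.03 and 0.311 CPM from 11, 18 and 4 reads under the knockout label. All 3 libraries labelled knockout were near the detection limit, and the wild-type libraries spread 9.49-fold in the same order as Cftr, WT 1 lowest and WT 2 highest. The log2 ratio was -5.86 ± 1.014 (SE, edgeR adjusted p = 0.094), a 57.9-fold lower level with a 95% interval of 11.0 to 306, and 0.136% of genes tested had a lower one. Without KO 2 it was -6.43 (edgeR adjusted p = 0.0334), and without WT 2 it was -4.54, a 23.2-fold lower level (edgeR adjusted p = 0.286).

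Prkg2 (ENSMUSG00000029334, chromosome 5, 98929773 to 99037351, minus strand), the kinase gene between cGMP and the channel, went the other way and was scarce. There were 10, 8 and 9 reads in the wild-type libraries and 26, 16 and 99 in those labelled knockout, or 0.594, 0.506 and 0.531 CPM against 1.28, 0.915 and 7.69 CPM. Only KO 3 was far above the rest. The exact Poisson 95% intervals of the 10 reads in WT 1 (4.80 to 18.4) and the 16 reads in KO 2 (9.15 to 26.0) overlap, so that pair did not differ detectably at this depth. Prkg2 passed the filter on low counts through the libraries labelled knockout alone, and its higher level there was therefore built into its being tested. The log2 ratio was 2.57 ± 0.91 (SE, edgeR adjusted p = 0.158), and 0.98 without KO 3 (edgeR adjusted p = 0.362). A pseudogene on the same strand within Prkg2 had 7 reads over all libraries.

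Per length, in FPKM (CPM divided by the gene's length in kilobases), the levels under the wild-type label ran from Guca2a at 475 ± 332 through Gucy2c at 40.4 ± 12.0, Best2 at 16.9 ± 18.0, Guca2b at 4.09 ± 3.03 and Cftr at 3.16 ± 3.19 to Prkg2 at 0.101 ± 0.00846 (SD, n = 3 each). That order held within each of the 3 wild-type libraries. Across libraries the ranges of Gucy2c and Best2, of Best2 and Guca2b, and of Guca2b and Cftr overlapped. Under the knockout label the order was Guca2a at 37.0 ± 47.2, Gucy2c at 3.41 ± 3.53, Prkg2 at 0.614 ± 0.710, Guca2b at 0.374 ± 0.362, Best2 at 0.283 ± 0.165 and Cftr at 0.0799 ± 0.0694 FPKM (SD, n = 3 each). Prkg2 had 1.43 FPKM in KO 3 against 0.239 and 0.170 in KO 1 and KO 2, and in KO 3 it lay above Guca2a at 1.18 FPKM.

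Best2 and Cftr lay below the epithelial markers in KO 2, the library labelled knockout with the most epithelial transcripts. Against the mean of all wild-type libraries, Guca2a, Guca2b and Gucy2c also lay below these markers there, with Slc26a3 the only marker lower. In KO 2 the median goblet cell marker was at 91.9% of its wild-type mean and the 9 goblet cell markers summed to 14234 CPM, within the 14063 to 15322 CPM of the wild-type libraries. Best2 stood at 2.75% of its wild-type mean in the same library. The median pan-epithelial marker was at 39.7% and the median surface colonocyte marker at 43.2%, with Guca2a at 19.0%, Guca2b at 17.7%, Gucy2c at 17.6% and Cftr at 3.96%. Single markers ranged there from 22.1% (Krt19) to 69.4% among the pan-epithelial, from 28.9% (Agr2) to 131% among the goblet cell and from 8.51% (Slc26a3) to 90.2% among the surface colonocyte markers. The median intestinal transcription factor was at 26.0%. WT 2 was the highest wild-type library for Best2, Cftr, Guca2a, Guca2b and Gucy2c, least so for Gucy2c at 133% of its wild-type mean. Against the mean of WT 1 and WT 3 alone KO 2 stood at 7.02% for Best2, 8.67% for Cftr, 31.9% for Guca2a, 30.8% for Guca2b and 21.1% for Gucy2c. On that scale the medians were 41.7% for pan-epithelial, 87.6% for goblet cell and 41.0% for surface colonocyte markers. In KO 1 the median pan-epithelial marker was at 6.66% and the goblet cell marker at 3.48%. Beside these, Guca2a was at 4.08%, Guca2b at 9.73%, Gucy2c at 7.42%, Cftr at 3.62% and Best2 at 1.45%. In KO 3 the medians were 0.334% and 0.195%, close to Guca2a at 0.248% and Gucy2c at 0.243%, and Best2 was at 0.831% on 4 reads. In WT 1, WT 2 and WT 3 Cftr was at 9.44, 209 and 81.9% of its wild-type mean and Best2 at 23.4, 222 and 55.0%. The median pan-epithelial marker was at 92.2, 110 and 90.7% there. A gap of Best2 and Cftr to the markers was thus also seen in WT 1 and is not particular to the knockout label. The gap in KO 2 has no replicate test.

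**Figure D2:**
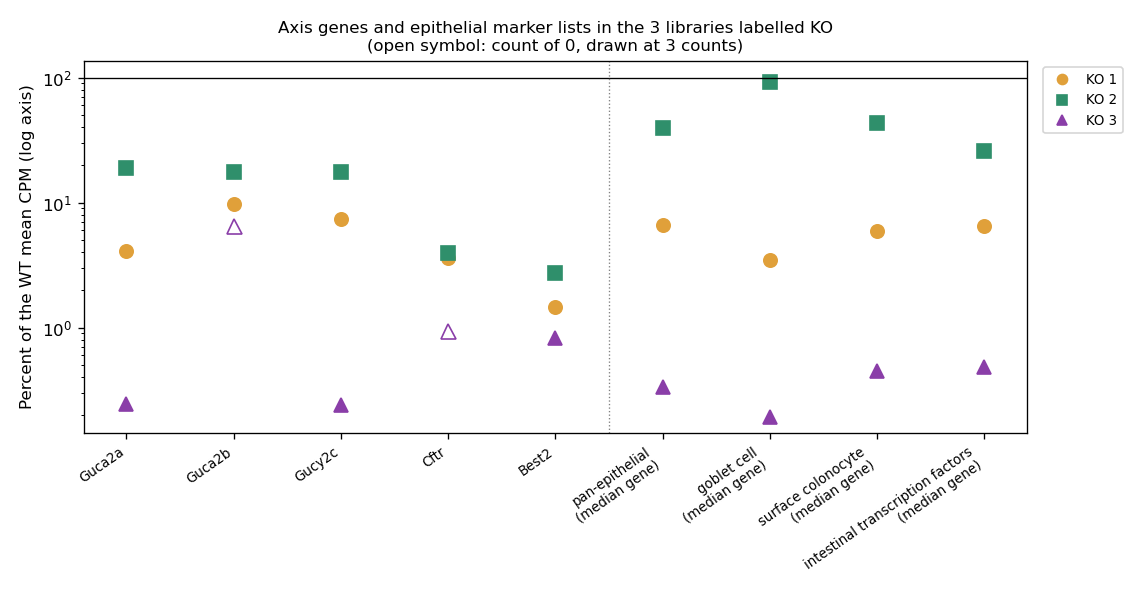
Level in each library labelled KO as a percent of the WT mean on a log axis, for 5 axis genes and for the median gene of 4 marker lists, with open symbols for counts of 0 drawn at 3 counts. In KO 2 the median goblet cell marker lies at 91.9% and Best2 at 2.75%.

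Counts were also set against the summed counts of the 11 pan-epithelial markers of the same library, which removes the library scaling. Guca2a had 9.95, 18.9 and 8.30 reads per 1000 marker reads under the wild-type label and 8.95, 6.69 and 5.46 under the knockout label. Gucy2c had 6.94, 7.87 and 7.42 against 9.21, 3.51 and 3.03. Cftr had 0.133, 1.90 and 1.02 against 0.691, 0.121 and 0. On this scale the labels overlapped for these genes. Best2 overlapped too, at 0.502, 3.07 and 1.04 against 0.422, 0.128 and 2.43, the last from 4 reads over 1648 marker reads. Guca2b was at 0.0991, 0.244 and 0.120 against 0.269, 0.0783 and 0. By two-sided exact permutation test of the group means the p-values were 0.2 for Guca2a and Cftr, 0.4 for Gucy2c, 0.5 for Best2 and 0.7 for Guca2b, and 0.4 to 0.7 after Benjamini-Hochberg adjustment over 6 genes. Prkg2 gave 0.1, the smallest p that 3 against 3 allows (adjusted 0.4), with 0.0187 to 0.0342 reads per 1000 against 0.998, 0.114 and 60.1. The last is 99 reads over 1648 marker reads. Marker reads numbered 292538 to 426799 under the wild-type label and at most 140527 under the knockout label. Prkg2 was also tested only through its reads in the libraries labelled knockout. Its separation on this scale was therefore built in, and its p adds no support.

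**Figure D3:**
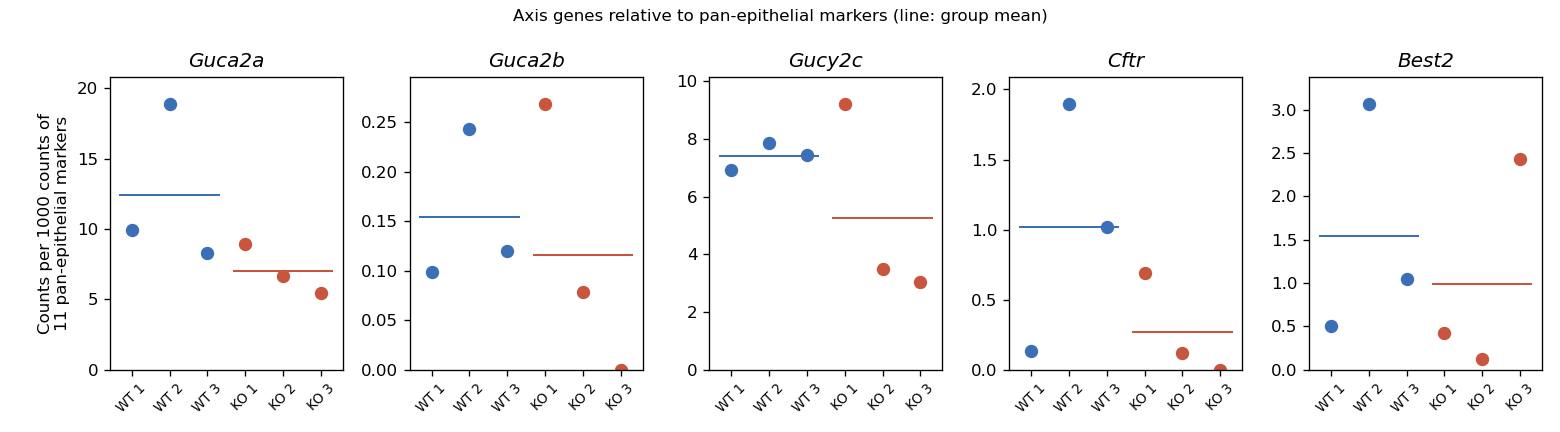
Reads of 5 axis genes per 1000 reads of the 11 pan-epithelial markers in the same library, on linear axes from 0, with points for libraries and lines for group means. The libraries of the labels overlap in every panel.

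Transport partners of chloride secretion were mostly low in the same libraries. Of 13 secretory transport genes in the list 12 were tested, 9 with a negative log2 ratio, and the median was -1.81 against 0.061 over all genes tested. With an unadjusted p under 0.05 there were 7 lower and 0 higher, beside 12.3% of all genes lower, and 0 passed after adjustment by edgeR. Kcne3, a potassium channel subunit that pairs with the channel encoded by Kcnq1 to recycle potassium at the basolateral membrane, had wild-type levels of 24.8, 119 and 41.9 CPM. Under the knockout label these were 1.83, 1.66 and 3.57 CPM, without overlap (log2 ratio -4.72 ± 0.70 SE, edgeR adjusted p = 0.094). Slc4a4, which brings bicarbonate in across that membrane, was at 44.7, 193 and 66.3 CPM against 9.34, 4.69 and 7.77 CPM (log2 ratio -3.80 ± 0.63 SE, edgeR adjusted p = 0.094). In both genes KO 2 was the lowest library, below KO 3. Atp1b1, which encodes a sodium pump subunit, had a log2 ratio of -3.13 (edgeR adjusted p = 0.104).

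Not all of the list shared this pattern. Of the 12 tested, 6 were without overlap and lower and 1 without overlap and higher, beside 17.3% and 15.0% of all genes. Slc12a2, which encodes the cotransporter NKCC1 that loads chloride into the cell, was among those that did not share it. Its level was 109 to 135 CPM in the wild-type libraries and 77.4 to 115 CPM in those labelled knockout. The labels overlapped, and KO 3, the library poorest in epithelial markers, was at 115 CPM. The 95% interval of its log2 ratio of -0.37 ran from -0.97 to 0.24 (edgeR adjusted p = 0.417). Best3 was not tested.

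Genes of apical salt absorption and the scaffold proteins that CFTR shares with NHE3 were tested in 6 of 7 cases, and Pdzk1 was not. A negative log2 ratio was found for 5, the median was -1.41, and 3 had an unadjusted p under 0.05 and were lower, beside 12.3% of all genes, with 0 past the adjusted threshold by edgeR. Slc26a3, the chloride and bicarbonate exchanger, had a log2 ratio of -4.77 ± 1.06 (SE, edgeR adjusted p = 0.0983). Slc9a3, which encodes NHE3, had 163, 84.0 and 67.0 CPM against 47.6, 80.7 and 1.17 CPM, so KO 2 lay among the wild-type libraries. Its log2 ratio of -1.28 had a 95% interval of -3.93 to 1.38 (edgeR adjusted p = 0.513). The scaffold gene Slc9a3r1 was at -1.09 and Ezr, which encodes the membrane linker ezrin, at -1.55.

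Other genes of cyclic nucleotide signalling had ratios of either sign. All 18 were tested, 6 with negative and 12 with positive log2 ratios, a median of 0.47, and 4 lower and 5 higher at an unadjusted p under 0.05, beside 12.3% and 11.8% of all genes, with 0 past the adjusted threshold by edgeR. Prkg1, the cGMP kinase gene of smooth muscle and other non-epithelial cells, had 5.29, 5.13 and 8.02 CPM against 10.2, 9.78 and 5.67 CPM, which overlap. Pde5a, a phosphodiesterase that breaks down cGMP, had a log2 ratio of 0.67 (edgeR adjusted p = 0.342). Pde9a, another cGMP phosphodiesterase gene, had the lowest ratio of the 18, -2.26 (edgeR adjusted p = 0.148), and is named after its values were seen. Its levels were 999, 319 and 779 CPM against 117, 280 and 40.4 CPM, without overlap. Vasp, whose actin-regulating product is a substrate of the cyclic nucleotide kinases, was at -0.96 (edgeR adjusted p = 0.14). Adcy6, an adenylate cyclase gene of the cAMP route to CFTR, was at -1.81 (edgeR adjusted p = 0.122). The phosphodiesterase genes Pde4d and Pde10a were at 1.05 and 1.65 (edgeR adjusted p = 0.137 and 0.139).

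Receptors for other secretagogues had ratios of either sign. Of 9 tested, 5 were negative with a median of -0.32, and Vipr1, the receptor gene for vasoactive intestinal peptide, was the 1 with an unadjusted p under 0.05, a share no higher than the 12.3% of all genes that were lower at that p. Vipr1 had 154, 410 and 336 CPM against 21.2, 45.6 and 2.33 CPM (log2 ratio -3.70 ± 1.00 SE, edgeR adjusted p = 0.112). Transcription factor genes of the gut epithelium were all lower: 10 of 10 had no overlap of the labels, beside 17.3% of all genes. Without overlap and lower were also 11 of 11 pan-epithelial, 6 of 8 surface colonocyte and 4 of 9 goblet cell markers. The median log2 ratio of the transcription factor genes was -3.27, and 7 had an unadjusted p under 0.05 with 0 past the adjusted threshold by edgeR. Gata6 and Hnf4g had log2 ratios of -1.80 and -3.69 (edgeR adjusted p = 0.094 for each). Hnf4a, a regulator of enterocyte genes, was at 491, 811 and 559 CPM against 36.2, 199 and 4.27 CPM (log2 ratio -2.96, edgeR adjusted p = 0.19). Cdx2, which sets intestinal identity, was at 16.6, 54.4 and 32.7 CPM against 4.25, 12.2 and 0.0777 CPM (log2 ratio -2.64, edgeR adjusted p = 0.225). For Vipr1, Hnf4a and Cdx2 KO 2 was the highest and KO 3 the lowest of the libraries labelled knockout, the order of Guca2a and Gucy2c. The summed pan-epithelial markers had that order too, at 1287, 8038 and 128 CPM in KO 1, KO 2 and KO 3, so it is not particular to these genes.

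Markers of other cells differed between the same libraries. The 5 neutrophil markers summed to 421, 8.80 and 49.5 CPM in the wild-type libraries, in the reverse order of Cftr and Best2, and to 1135, 1189 and 6695 CPM in the others, with 0 of the 5 at a count of 0. The 5 fibroblast markers summed to 1297 to 2251 CPM under the wild-type label and 3487 to 6239 CPM under the knockout label. Without Dcn the other 4 summed to 1035 to 1758 CPM and to 3658, 2412 and 1232 CPM, which overlap. The 5 endothelial markers summed to 130 to 252 and 229 to 1002 CPM. Smooth muscle markers overlapped, at 2769 to 3753 and 1341 to 4642 CPM. The part of these cells in the levels of the axis genes was not tested.

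The genes most like each axis gene across the 6 libraries, by Pearson correlation of log2 CPM among 13950 protein-coding genes, were listed as a description, since most epithelial genes share the contrast between libraries. They were Hpgd, Tpmt and Epn3 for Guca2a, Fam83c, Rnf5 and Ankrd9 for Guca2b, and Ap5z1, Cpt2 and Prkaa2 for Gucy2c. For Cftr they were Bscl2, Prkci and Zdhhc7, for Best2 Ppif, Selenbp1 and Maoa, and for Prkg2 Ncl, Ddx27 and Wdr12. Correlations were 0.996 to 1.000 in all 18 cases and 0.924 to 1.000 without the pair of libraries farthest from the median. Among the 6 genes themselves, Guca2a correlated at 0.99 with Gucy2c and 0.98 with Guca2b, Cftr at 0.95 with Best2, and Prkg2 at -0.98 with Gucy2c over the same 6 libraries.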

How the data were processed

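The authors deposited raw gene counts for the 6 libraries. Per the labels' protocols, reads with adaptors or of low quality had been removed first. The submitters' processing notes name featureCounts 1.5.0-p3 and HISAT2 2.0.5, besides DESeq2 and StringTie 1.3.3b, and the builds mm10 and GRCm38, without saying what each did. Strand setting and treatment of multi-mapped reads: not given in the sources used here.

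The test was that of edgeR 4.0.16 (R 4.3.3): filterByExpr (minimum count 10, minimum total 15), TMM scaling, robust quasi-likelihood F test, no covariates, adjustment over all genes tested. CPM used TMM-scaled sizes, log2 CPM a prior count of 2, and FPKM the deposited gene lengths. Standard errors and intervals were derived from the F statistic. Alternatives were other scalings, filters and tests (DESeq2 1.42.0, limma 3.58.1), a replicate block and each library left out. The scripts were tested on simulated data. Libraries of 1 label differed by far more than sampling noise (chi-square per degree of freedom 50.7 to 253).

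The genes and lists were chosen with earlier results of these data known. Named were the 6 genes, a set of direct partners, up to 4 genes per list with the smallest p, and the 3 genes most like each member, and some genes that this rule takes are not reported here. The counts per marker read were added after the data had been seen. Promoters came from RefSeq (3 of 6 genes matched) and coding ends from GENCODE M21.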

Additional observations from a re-analysis of the deposited data

How the results depend on the processing

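Each of the 6 genes kept its direction under all 16 alternatives that gave it a value. The labels did not overlap for any of the 6, so a reversed sign was hardly possible and the kept direction is no separate support. Requiring 10 reads in each library removed all 6, so it gave no value. The count of genes past the threshold, 0 with the main test, was 192 with no filter, 2029 with DESeq2, 1396 with limma-voom with quality weights and 3 with the replicate block, and 0 to 1813 when each library was left out. The count among the 6 genes was 5 with DESeq2, 2 with quality weights and 0 to 2 when each library was left out. DESeq2 gave log2 ratios of -3.71 for Guca2a, -3.44 for Guca2b, -3.60 for Gucy2c, -5.32 for Cftr and -5.91 for Best2, each past its threshold, and Prkg2 did not pass (adjusted p = 0.0578). Quality weights gave -4.16 for Guca2a and -4.15 for Gucy2c, both past it. Leaving out each library gave -5.57 to -2.94 for Guca2a, -4.20 to -2.60 for Guca2b, -4.75 to -3.001 for Gucy2c, -5.80 to -4.15 for Cftr, -6.43 to -4.54 for Best2 and 0.98 to 2.99 for Prkg2. Past the threshold were Guca2a and Best2, each without KO 2. The cause was not tested.

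The replicate block gave -5.45 for Best2 (adjusted p = 0.0771) and 1.92 for Prkg2 (0.277), and it changed no call among the 6 genes. Same-numbered libraries correlated at -0.20, 0.087 and -0.075 in their deviations from the group means, and libraries of unlike number at -0.17 to 0.34. Deviations within so few libraries are tied to each other, so these values cannot show whether libraries were paired. Upper-quartile scaling moved the median log2 ratio of all genes from 0.061 to 0.21, with Prkg2 at 2.74. Leaving out KO 3 together with WT 2, which was added once the values were known, gave -2.37 for Guca2a, -3.61 for Cftr, -4.24 for Best2 and 0.93 for Prkg2. The difference between labels in the median gene relative to the pan-epithelial markers was 0.22, against an SD of 1.13 between libraries, -0.53 to 0.89 when each library was left out and -0.18 with a prior count of 0.5, so its sign depends on that prior. In KO 3 it rests on Cftr with 0 and Best2 with 4 reads. Low counts limit Guca2b, Cftr, Best2 and Prkg2.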

Other observations

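Secretory genes also spread widely among the wild-type libraries, where all mice drank DSS. WT 2 was 22.1 times WT 1 for Cftr, 10.4 times for Kcnq1, 9.49 times for Best2, 6.32 times for Ano1, which encodes a calcium-activated chloride channel, and 4.78 times for Kcne3. Over 15447 genes with a wild-type mean of at least 1 CPM, the median gene spread 1.53-fold, and 0.473% had a larger spread than Cftr and 1.46% a larger one than Best2. Epcam spread 1.05-fold and Muc2 1.26-fold in the same libraries, with WT 1 the highest for Muc2, but other epithelial markers had the order of Cftr, Krt19 with a 2.79-fold, Atoh1 with a 2.38-fold and Krt8 with a 2.10-fold spread. Gucy2c spread 1.76-fold and Slc12a2 1.24-fold. The neutrophil markers S100a8 and Retnlg spread 285-fold and 293-fold in the opposite direction, WT 1 highest and WT 2 lowest. These genes were chosen after their values were seen, and with 3 libraries this is a description without a test.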
